A study of Saccharomyces cerevisiae with 12 samples.

Results

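The genes described are those that build ergosterol in *Saccharomyces cerevisiae*, from acetyl-CoA to the finished sterol, with the acyltransferases that store it and the transcription factors that regulate it. They were taken by gene name from a list of 30, of which 29 were found among the 7126 features of the expression table. *ERG29* is not listed under that name. The R64 reference gives that name to the locus YMR134W, whose row is described apart and counted nowhere. The 29 genes fall into 9 of the mevalonate arm (*ERG10*, *ERG13*, *HMG1*, *HMG2*, *ERG12*, *ERG8*, *MVD1*, *IDI1*, *ERG20*), 3 that form squalene and lanosterol (*ERG9*, *ERG1*, *ERG7*), 12 of the late sterol arm (*ERG11*, *ERG24*, *ERG25*, *ERG26*, *ERG27*, *ERG28*, *ERG6*, *ERG2*, *ERG3*, *ERG5*, *ERG4* and *NCP1*), 2 of sterol esterification (*ARE1*, *ARE2*) and 3 regulators (*UPC2*, *ECM22*, *SUT1*).

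RNA was sequenced from 12 cultures in 4 groups of 3: the *RRD1* knockout strain with 100 nM rapamycin for 50 min, the wild-type strain BY4730 with the same treatment, the untreated knockout and the untreated wild type. All cultures were grown in YPD to log phase at 30 °C. Libraries carry the numbers 2, 4 and 6 with rapamycin and 1, 3 and 5 without it, in both strains. The knockout is represented by 1 strain, and the repeats were made on different days that are not assigned to libraries. Rapamycin inhibits the TORC1 kinase, which couples growth to nutrients, and Rrd1 is an activator of the phosphatases of the PP2A family that act below TORC1.

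Ergosterol is the main sterol of fungal membranes and takes the place that cholesterol has in animals. The mevalonate arm makes farnesyl diphosphate, which also feeds ubiquinone, dolichol and protein prenylation. Squalene synthase commits it to sterols, and the late arm turns lanosterol into ergosterol in steps that use molecular oxygen and heme. The paired factors Upc2 and Ecm22 bind a short promoter element, the sterol regulatory element, and activate many *ERG* genes, while Sut1 promotes sterol uptake.

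The core of that element, TCGTATA, was the only motif searched, on both strands of the 500 bases before each start codon in the R64 genome. It was present in 8 of the 29 genes (27.6%), against 420 of 6002 protein-coding genes (7%). The 8 were *ERG13* and *ERG8* of the mevalonate arm, *ERG1*, and *ERG25*, *ERG28*, *ERG6*, *ERG2* and *ERG3* of the late arm. Within 300 bases it was present in 5 of the 29 (17.2%) and in 4.62% of all. The windows below are shown because they hold the matches of *ERG28*, the gene with the largest rapamycin response, of *ERG1* and *ERG25*, which also rose, and of *ERG2* and *ERG3*, which have the same core and did not pass the test. Each line gives the strand that reads the core, with the core in capitals.
*ERG28*, chrV:238277-238305, plus strand, 271 bases before the start codon: tttaattcagtTCGTATAagattaggtta
*ERG1*, chrVII:848788-848816, minus strand, 375 bases before the start codon: gtagcgggcctTCGTATAgctcggccgag
*ERG25*, chrVII:610070-610098, plus strand, 476 bases before the start codon: actgcctccctTCGTATAcgggacacaga
*ERG25*, chrVII:610090-610118, plus strand, 456 bases before the start codon: ggacacagagaTCGTATAcggtaaacgac
*ERG2*, chrXIII:667341-667369, plus strand, 178 bases before the start codon: aaccacggcccTCGTATAagccgcaagga
*ERG3*, chrXII:253524-253552, minus strand, 319 bases before the start codon: agccatcggccTCGTATAcaccccggttg
*ERG3*, chrXII:253564-253592, plus strand, 279 bases before the start codon: aaaattcaggcTCGTATAagtggcacaat

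Values are FPKM, fragments scaled to transcript length and to the mapped reads of the library, so that levels of different genes can be set side by side. They summed to between 1848118 and 2584116 per library. The targeted gene *RRD1* was at 0 to 0.203 FPKM in the 6 knockout libraries and at 47.5 to 85.3 FPKM in the 6 wild-type libraries. *LEU2*, *URA3* and *MET17* were listed at 0 in all 12 libraries. The a-factor gene *MFA1* was at 67170 FPKM or more in every library, while *MF(ALPHA)1* did not exceed 1.87 FPKM. Among the knockout libraries *MFA1* stood apart in library 2 with rapamycin (320728 FPKM, against 131465 and 125098 in libraries 4 and 6) and in library 1 without it (198870 FPKM, against 67170 and 88463 in libraries 3 and 5). The part of that difference in the sterol results was not tested, and counts without each of those libraries are given with the calls that depended on a library.

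All 29 genes passed the filter on low values, and the lowest value in any library was 10 FPKM. The order of the mean FPKM over the 12 libraries ran from *ERG25* (674), *ERG2* (622), *ERG3* (565) and *ERG1* (549) to *SUT1* (31.3), *ECM22* (15.2) and *UPC2* (12.4), a 54.3-fold range. The 3 regulators had the lowest levels together with *ARE2* (32.7 FPKM) and *HMG2* (37.1 FPKM). Of the 12 late genes, 6 lay among the 7 highest levels, while the mevalonate genes spanned 387 FPKM for *ERG10* to 37.1 FPKM for *HMG2*. Neighbours in this order overlapped in their libraries, for example *ERG11* (419 to 564 FPKM) and *ERG6* (402 to 639 FPKM).

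**Figure D1:**
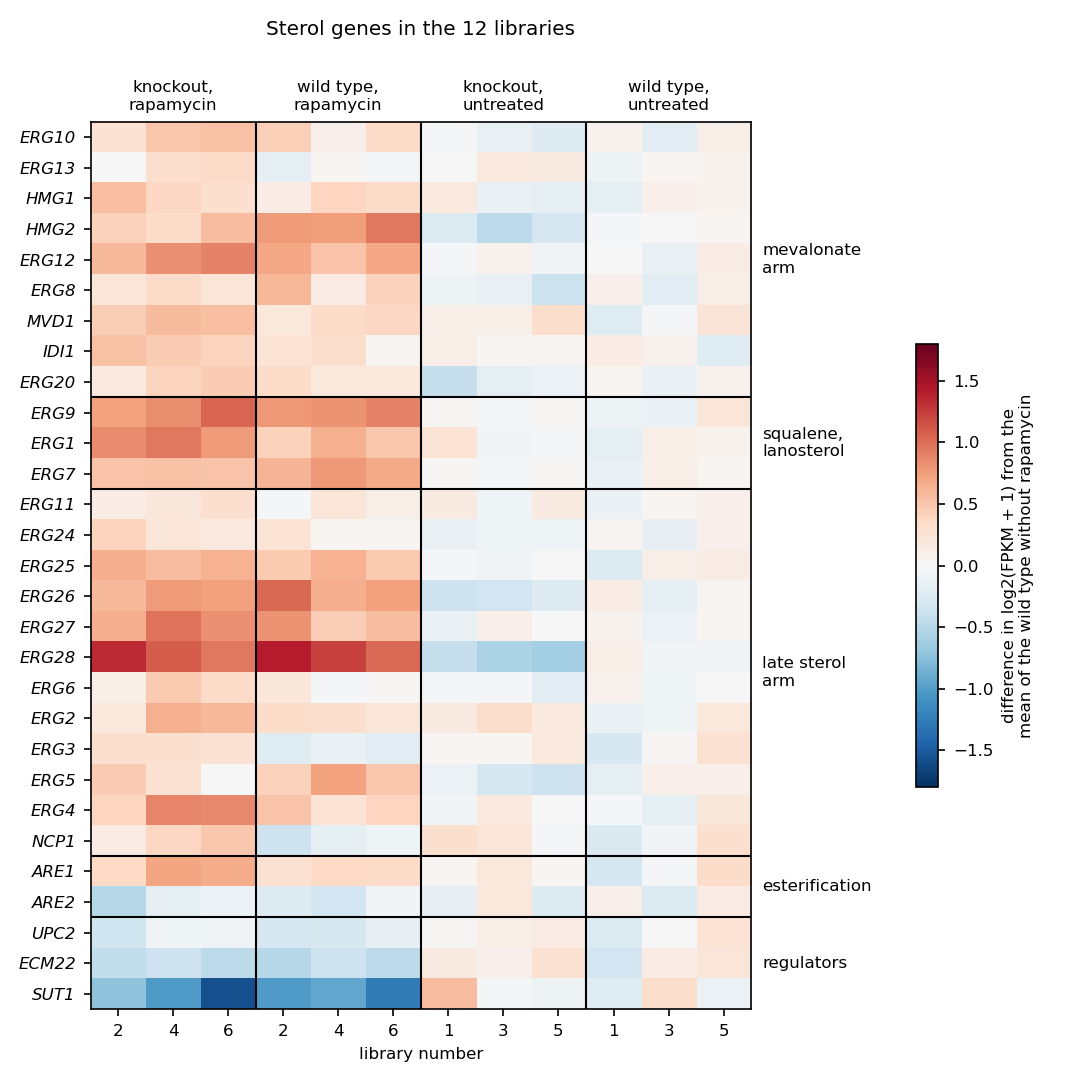
Each cell is the difference in log2(FPKM + 1) of 1 gene in 1 library from the mean of the untreated wild type, with genes grouped by pathway arm and libraries by group. The columns of both rapamycin groups are red for *ERG28*, *ERG26*, *ERG9* and *HMG2* and blue for *SUT1*, whose response was −1.26 in the knockout and −1.07 in the wild type.

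With rapamycin *ERG28*, *ERG26* and *ERG9* rose and *SUT1* fell in both strains. In the knockout, 14 of the 24 synthesis genes (58.3%) rose and none fell, with a median log2 difference of 0.51. In the wild type, 10 of the 24 (41.7%) rose and none fell, with a median of 0.34. A gene was called, here and below, where its *p*-value from a limma fit to log2(FPKM + 1) was under 0.01 after Benjamini-Hochberg adjustment over the 6497 features whose FPKM averaged 1 or more. Log2 differences are on that scale, which understates the change of low genes. Of all features 36.4% were called higher and 10.3% lower with rapamycin in the knockout, against 35.9% and 16.3% in the wild type, so the share of synthesis genes called higher lay near that of all features in the wild type. The median of all features was itself 0.34 higher with rapamycin in the knockout and 0.29 higher in the wild type, so responses are also given relative to that shift. After scaling the libraries by median ratios, which brought these medians to 0.00 and 0.01, 5 synthesis genes (20.8%) were called higher and none lower in the knockout, against backgrounds of 19.8% and 20.3%, and 5 (20.8%) were called higher and 1 lower in the wild type, against 24.1% and 25%. On that scale the share called higher was near the background in the knockout and below it in the wild type. Cultures were measured in bulk, where fewer cells of a type and less RNA per cell cannot be told apart.

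The same 11 genes were called in both strains, all in the same direction: *HMG2*, *ERG12*, *ERG9*, *ERG1*, *ERG7*, *ERG25*, *ERG26*, *ERG27*, *ERG28* and *ERG5* higher and *SUT1* lower. Another 5 were called in the knockout and missed the threshold in the wild type (*ERG10*, *HMG1*, *ERG20* and *ERG4* higher, *ECM22* lower), and 13 were called in neither strain. For none of these 5 did the difference in response between the strains pass the interaction test described further on.

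**Figure D2:**
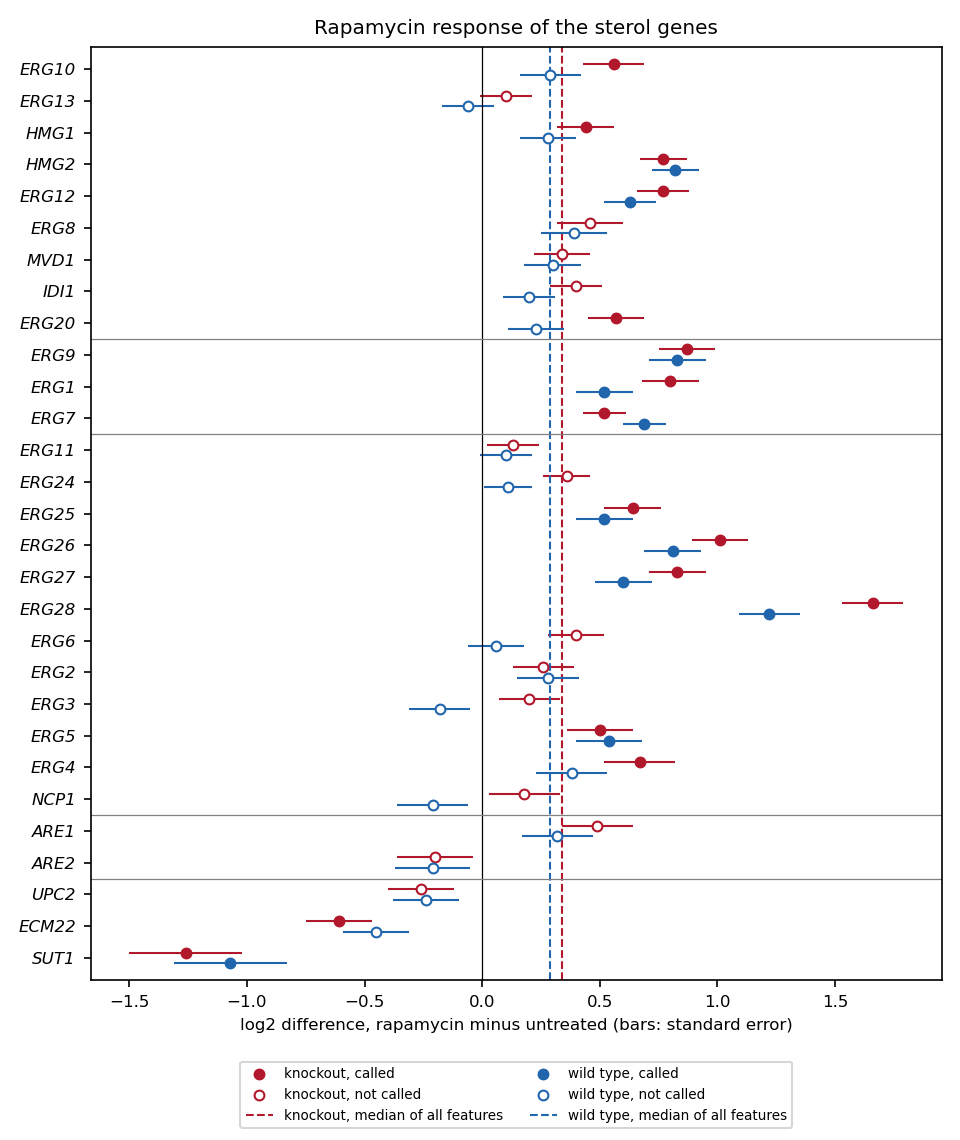
Points give the log2 difference of rapamycin minus untreated with its standard error for each gene, the knockout in red above the wild type in blue, filled where called. Dashed lines mark the median of all features, 0.34 in the knockout and 0.29 in the wild type, and *ERG28* lies farthest to the right at 1.66 in the knockout and 1.22 in the wild type.

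The largest rise belonged to *ERG28*, the membrane scaffold that holds together the enzymes removing the C-4 methyl groups. *ERG28* had 426, 359 and 326 FPKM in the knockout with rapamycin, 450, 397 and 341 FPKM in the wild type with rapamycin, 126, 113 and 110 FPKM in the untreated knockout, and 182, 162 and 161 FPKM in the untreated wild type. Every treated library was above every untreated library of both strains. Its log2 difference was 1.66 (SE 0.13, limma adjusted *p* = 2e-06) in the knockout, a 3.16-fold rise, and 1.22 (SE 0.13, adjusted *p* = 9.8e-06) in the wild type, a 2.33-fold rise. This exceeded the difference of 94.1% of features in the knockout and of 86% in the wild type.

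The 3 enzymes that work on that scaffold rose with it. *ERG26*, the C-3 sterol dehydrogenase, had 221, 250 and 244 FPKM in the treated knockout, 300, 230 and 245 FPKM in the treated wild type, 113, 115 and 124 FPKM in the untreated knockout, and 160, 130 and 151 FPKM in the untreated wild type. Its log2 difference was 1.01 (SE 0.12, limma adjusted *p* = 2.9e-05) in the knockout and 0.81 (SE 0.12, adjusted *p* = 0.00012) in the wild type, and treated and untreated libraries did not overlap in either strain.
*ERG27*, the 3-keto sterol reductase, had 233, 292 and 261 FPKM in the treated knockout, 259, 201 and 217 FPKM in the treated wild type, 134, 158 and 148 FPKM in the untreated knockout, and 154, 137 and 153 FPKM in the untreated wild type. All treated libraries were again the higher ones, with log2 differences of 0.83 (SE 0.12, limma adjusted *p* = 0.00016) in the knockout and 0.60 (SE 0.12, adjusted *p* = 0.0014) in the wild type.
*ERG25*, the C-4 methyl sterol oxidase, had 855, 798 and 843 FPKM in the treated knockout, 758, 838 and 756 FPKM in the treated wild type, 531, 522 and 545 FPKM in the untreated knockout, and 460, 588 and 599 FPKM in the untreated wild type. It was thus the most abundant and the least changed of these genes, at 0.64 (SE 0.12, limma adjusted *p* = 0.00062) in the knockout and 0.52 (SE 0.12, adjusted *p* = 0.0021) in the wild type. After median-ratio scaling *ERG28* and *ERG26* were still called in both strains, while *ERG27* (adjusted *p* = 0.014 in the knockout and 0.074 in the wild type) and *ERG25* (0.042 and 0.08) were not.

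All 3 genes between farnesyl diphosphate and lanosterol rose in both strains, with list medians of 0.80 in the knockout and 0.69 in the wild type. *ERG9*, squalene synthase and the first step committed to sterols, had 337, 367 and 425 FPKM in the treated knockout, 352, 359 and 381 FPKM in the treated wild type, 207, 199 and 208 FPKM in the untreated knockout, and 192, 188 and 237 FPKM in the untreated wild type. The lowest treated library was above the highest untreated one, and the log2 difference was 0.87 (SE 0.12, limma adjusted *p* = 7.2e-05) in the knockout and 0.83 (SE 0.12, adjusted *p* = 7.9e-05) in the wild type.
*ERG1*, squalene epoxidase, had 748, 798 and 705 FPKM in the treated knockout, 553, 648 and 587 FPKM in the treated wild type, 493, 399 and 408 FPKM in the untreated knockout, and 368, 445 and 434 FPKM in the untreated wild type. Treated and untreated libraries were apart in each strain, with 0.80 (SE 0.12, limma adjusted *p* = 0.0002) in the knockout and 0.52 (SE 0.12, adjusted *p* = 0.003) in the wild type.
*ERG7*, lanosterol synthase, had 115, 116 and 115 FPKM in the treated knockout, 123, 138 and 129 FPKM in the treated wild type, 80.9, 78.7 and 81.3 FPKM in the untreated knockout, and 72.8, 86.2 and 81.8 FPKM in the untreated wild type. It is the only gene of this group with the larger response in the wild type, at 0.52 (SE 0.09, limma adjusted *p* = 0.00037) in the knockout and 0.69 (SE 0.09, adjusted *p* = 3.4e-05) in the wild type, a difference between strains that did not pass the test (−0.17, SE 0.12, adjusted *p* = 0.55). After scaling, *ERG9* was called in both strains, *ERG1* in the knockout alone (adjusted *p* = 0.0071, against 0.1 in the wild type) and *ERG7* in the wild type alone (adjusted *p* = 0.12 in the knockout, against 0.0013).

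The rest of the late arm responded less evenly. *ERG5*, a cytochrome P450 that desaturates the sterol side chain, had 215, 190 and 157 FPKM in the treated knockout, 209, 258 and 220 FPKM in the treated wild type, 146, 127 and 121 FPKM in the untreated knockout, and 139, 166 and 166 FPKM in the untreated wild type. Its responses of 0.50 (SE 0.14, limma adjusted *p* = 0.0095) in the knockout and 0.54 (SE 0.14, adjusted *p* = 0.0055) in the wild type lay near the threshold.
*ERG4*, the reductase of the last step, had 427, 601 and 596 FPKM in the treated knockout, 466, 389 and 428 FPKM in the treated wild type, 317, 370 and 326 FPKM in the untreated knockout, and 321, 289 and 377 FPKM in the untreated wild type. Treated libraries were above untreated ones in both strains, but the response passed the test in the knockout alone, at 0.67 (SE 0.15, limma adjusted *p* = 0.0032), against 0.38 (SE 0.15, adjusted *p* = 0.048) in the wild type. Neither gene was called after scaling.

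Among the abundant late enzymes that did not pass the test, *ERG11*, the lanosterol demethylase that azole drugs inhibit, ranged over 503 to 564 FPKM in the treated knockout, 451 to 533 FPKM in the treated wild type, 434 to 514 FPKM in the untreated knockout and 419 to 486 FPKM in the untreated wild type. Its log2 difference was 0.13 (SE 0.11) in the knockout and 0.10 (SE 0.11) in the wild type, below the median of all features in both. *ERG3*, the C-5 desaturase, was at 0.20 in the knockout and −0.18 in the wild type, and *NCP1*, the reductase that supplies electrons to the cytochrome P450 enzymes, at 0.18 and −0.21. After scaling *ERG3* was called lower in the wild type (−0.47, limma adjusted *p* = 0.0058) and not in the knockout (−0.16, adjusted *p* = 0.29). The sterol methyltransferase *ERG6* was at 0.40 in the knockout and 0.06 in the wild type, the sterol isomerase *ERG2* at 0.26 and 0.28, and the sterol reductase *ERG24* at 0.36 and 0.11. The values of *ERG24* (adjusted *p* = 0.01045) and *ERG6* (adjusted *p* = 0.011) in the knockout fell just outside the threshold.

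In the mevalonate arm 5 of 9 genes (55.6%) were called higher in the knockout, against 36.4% of all features, and 2 of 9 (22.2%) in the wild type, against 35.9%. *HMG2*, the isozyme of HMG-CoA reductase that is degraded when the pathway is full, had 40.4, 37.9 and 44.4 FPKM in the treated knockout, 51.6, 51.3 and 58.8 FPKM in the treated wild type, 25.2, 21.4 and 24.2 FPKM in the untreated knockout, and 29.4, 29.7 and 30.9 FPKM in the untreated wild type. The 4 groups did not overlap at all. Its response was 0.77 (SE 0.10, limma adjusted *p* = 5e-05) in the knockout and 0.82 (SE 0.10, adjusted *p* = 2.2e-05) in the wild type.
*HMG1*, the more stable isozyme, had 75.1, 66.5 and 62.8 FPKM in the treated knockout, 55.9, 66.9 and 64.6 FPKM in the treated wild type, 58, 46.8 and 45.6 FPKM in the untreated knockout, and 45.8, 54.5 and 53.5 FPKM in the untreated wild type. The treated libraries were the higher ones in each strain by narrow margins, and the response of 0.44 (SE 0.12, limma adjusted *p* = 0.009551) in the knockout was called, while 0.28 (SE 0.12, adjusted *p* = 0.066) in the wild type was not. Relative to all features these were 0.10 and −0.01.
The ratio of *HMG2* to *HMG1* FPKM within a library was 0.605 ± 0.0904 in the treated knockout, 0.867 ± 0.0862 in the treated wild type, 0.474 ± 0.0501 in the untreated knockout and 0.588 ± 0.0493 in the untreated wild type (SD, n = 3 each). This ratio was chosen after its values were seen and was not tested.

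*ERG12*, mevalonate kinase, was the other mevalonate gene that rose in both strains. It had 123, 146 and 153 FPKM in the treated knockout, 133, 117 and 133 FPKM in the treated wild type, 80.6, 86.2 and 78.4 FPKM in the untreated knockout, and 82.4, 74.3 and 89.9 FPKM in the untreated wild type. Treated and untreated libraries were apart, with 0.77 (SE 0.11, limma adjusted *p* = 0.00012) in the knockout and 0.63 (SE 0.11, adjusted *p* = 0.00042) in the wild type.
*ERG20*, farnesyl diphosphate synthase, had 372, 438 and 455 FPKM in the treated knockout, 414, 375 and 377 FPKM in the treated wild type, 248, 295 and 306 FPKM in the untreated knockout, and 340, 304 and 348 FPKM in the untreated wild type. It was called in the knockout at 0.57 (SE 0.12, limma adjusted *p* = 0.0015) and not in the wild type at 0.23 (SE 0.12, adjusted *p* = 0.1).
*ERG10*, acetoacetyl-CoA thiolase, had 410, 488 and 498 FPKM in the treated knockout, 461, 368 and 438 FPKM in the treated wild type, 339, 313 and 292 FPKM in the untreated knockout, and 364, 301 and 371 FPKM in the untreated wild type. Its groups were apart in the knockout, at 0.56 (SE 0.13, limma adjusted *p* = 0.0033), and overlapped in the wild type, at 0.29 (SE 0.13, adjusted *p* = 0.073).
The remaining mevalonate genes passed in neither strain. Their log2 differences were 0.10 in the knockout and −0.06 in the wild type for *ERG13* (HMG-CoA synthase), 0.46 and 0.39 for *ERG8* (phosphomevalonate kinase), 0.34 and 0.30 for *MVD1* (mevalonate diphosphate decarboxylase), and 0.40 and 0.20 for *IDI1* (isopentenyl diphosphate isomerase, adjusted *p* = 0.01002 in the knockout). After scaling *HMG2* was the only mevalonate gene called, in both strains.

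**Figure D3:**
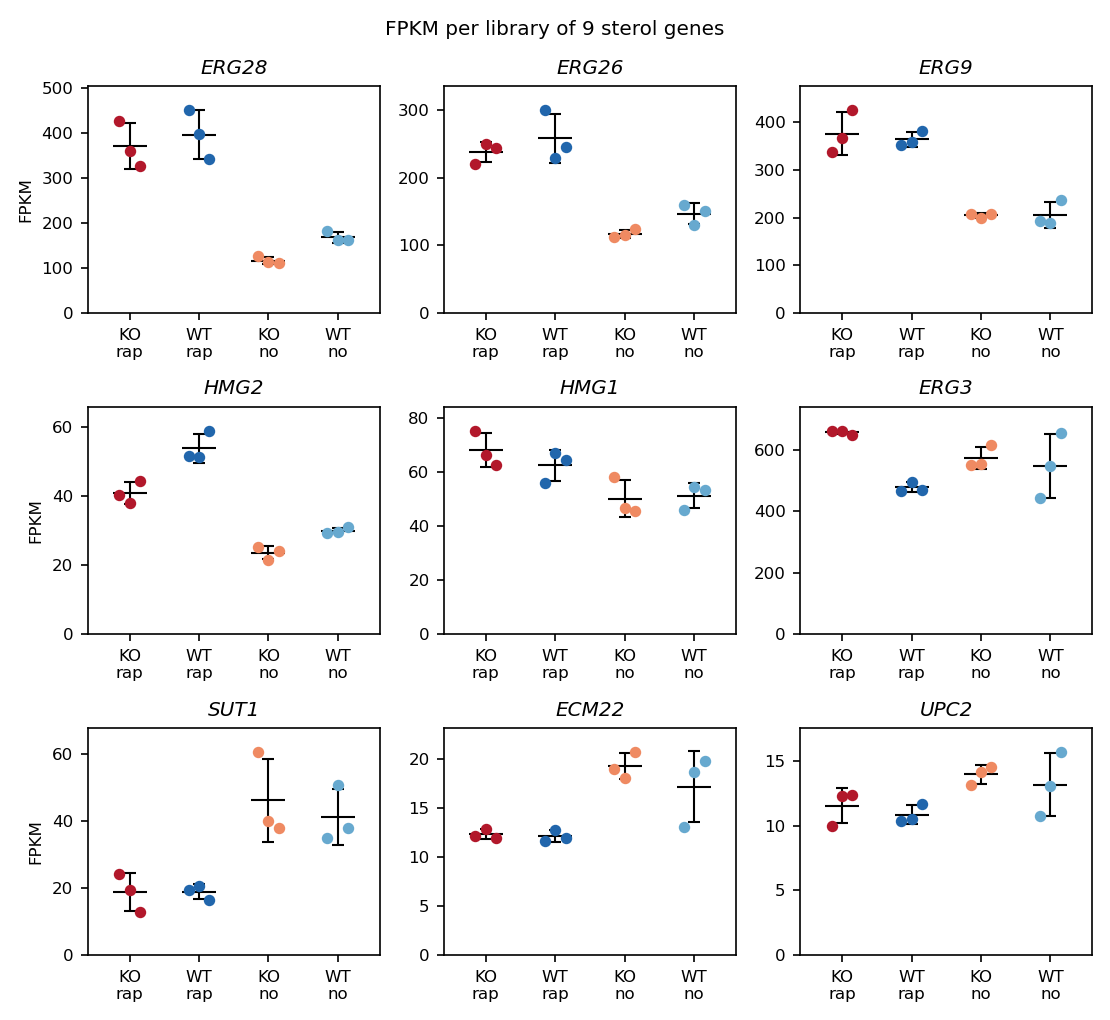
FPKM per library (points) with the mean and SD (bars) of 9 genes, with rap for rapamycin and no for untreated. *ERG28*, *ERG26*, *ERG9* and *HMG2* separate treated from untreated libraries in both strains, as does *SUT1* in the opposite direction (12.9 to 24.3 FPKM in the treated knockout, against 38 to 60.5 FPKM untreated).

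None of the regulators rose: *SUT1* fell in both strains, *ECM22* fell in the knockout and *UPC2* passed the test in neither. *SUT1* had 24.3, 19.5 and 12.9 FPKM in the treated knockout, 19.5, 20.7 and 16.5 FPKM in the treated wild type, 60.5, 40.1 and 38 FPKM in the untreated knockout, and 35, 50.8 and 37.8 FPKM in the untreated wild type. Every treated library was below every untreated one, and the log2 difference was −1.26 (SE 0.24, limma adjusted *p* = 0.00088) in the knockout, a 2.39-fold fall, and −1.07 (SE 0.24, adjusted *p* = 0.0021) in the wild type, a 2.1-fold fall.
*ECM22* had 12.2, 12.9 and 11.9 FPKM in the treated knockout, 11.6, 12.8 and 12 FPKM in the treated wild type, 19, 18.1 and 20.7 FPKM in the untreated knockout, and 13.1, 18.7 and 19.8 FPKM in the untreated wild type. Untreated wild-type library 1 lay close to the treated ones. The fall was called in the knockout (−0.61, SE 0.14, limma adjusted *p* = 0.0033) and missed the threshold in the wild type (−0.45, SE 0.14, adjusted *p* = 0.015).
*UPC2* had 10, 12.3 and 12.4 FPKM in the treated knockout, 10.4, 10.5 and 11.7 FPKM in the treated wild type, 13.2, 14.2 and 14.6 FPKM in the untreated knockout, and 10.8, 13.1 and 15.7 FPKM in the untreated wild type. Its groups were apart in the knockout and overlapped in the wild type, and neither difference passed, at −0.26 (SE 0.14, limma adjusted *p* = 0.13) in the knockout and −0.24 (SE 0.14, adjusted *p* = 0.16) in the wild type. After scaling all 3 regulators were called lower in both strains, *UPC2* at −0.59 (adjusted *p* = 0.0041) in the knockout and −0.51 (adjusted *p* = 0.0082) in the wild type. On that scale 20.3% of all features were called lower in the knockout and 25% in the wild type.

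The acyl-CoA:sterol acyltransferases, which turn sterols into storage esters, passed in neither strain. *ARE1* was at 0.49 (SE 0.15, limma adjusted *p* = 0.015) in the knockout and 0.32 (SE 0.15, adjusted *p* = 0.077) in the wild type, and *ARE2* at −0.20 and −0.21. YMR134W, the locus named *ERG29* in R64, ranged from 57.2 to 76 FPKM over the 12 libraries and was not called in any comparison.

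Set against each other, the mevalonate and late arms gave similar medians, and the squalene and lanosterol step stood above both. In the knockout the median rapamycin response was 0.46 for the 9 mevalonate genes, 0.80 for the 3 squalene and lanosterol genes and 0.45 for the 12 late genes, beside 0.34 for all features. In the wild type these medians were 0.29, 0.69 and 0.33, beside 0.29 for all features. By library, the mevalonate median minus that of all features was 0.13, 0.21 and 0.22 in the treated knockout, 0.00, 0.01 and 0.11 in the treated wild type, 0.01, −0.01 and −0.02 in the untreated knockout, and 0.05, −0.05 and 0.05 in the untreated wild type. For the late arm it was 0.11, 0.31 and 0.30 in the treated knockout, 0.05, −0.03 and 0.06 in the treated wild type, −0.01, 0.07 and 0.07 in the untreated knockout, and −0.03, −0.09 and 0.06 in the untreated wild type. Within each arm the treated knockout libraries lay above the treated wild-type ones. The closest libraries were at 0.13 and 0.11 in the mevalonate arm and at 0.11 and 0.06 in the late arm, and untreated libraries reached 0.07. These medians were not tested between the strains, and no gene was called in the interaction. The late arm was the wider, from *ERG28* at 1.66 to *ERG11* at 0.13 in the knockout and from 1.22 to −0.21 (*NCP1*) in the wild type, where the mevalonate genes ran from 0.77 to 0.10 and from 0.82 to −0.06.

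**Figure D4:**
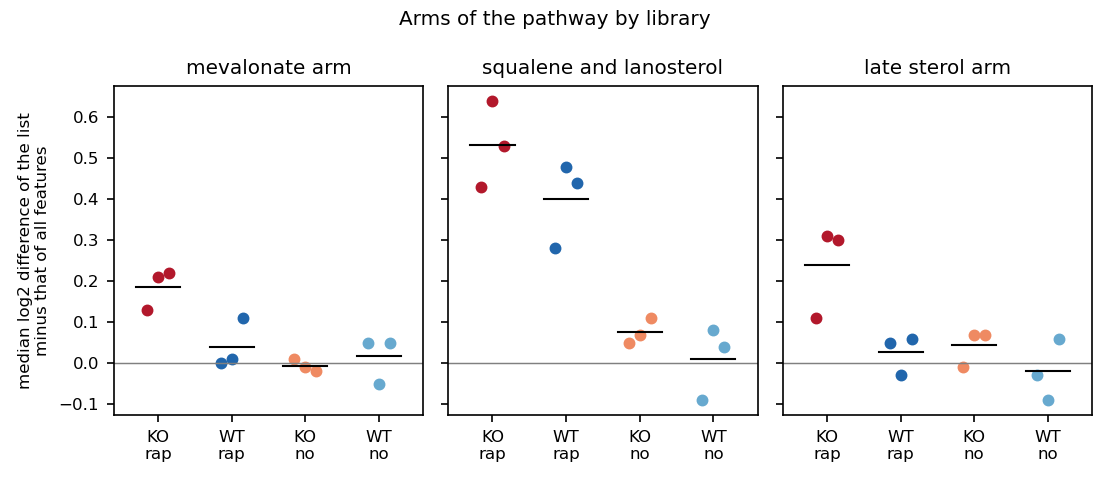
Each point is 1 library and gives the median log2 difference of a list from the untreated wild-type mean, minus the same median over all features, with a line at the mean of the 3 libraries of a group (rap, rapamycin; no, untreated). The squalene and lanosterol genes reach 0.43 to 0.64 in the treated knockout and 0.28 to 0.48 in the treated wild type, above the points of the other lists in the same library.

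Genes with the TCGTATA core were found on both sides of the test. In the knockout, 3 of the 8 genes with it and 11 of the 21 without it were called higher with rapamycin, and in the wild type 3 of 8 and 7 of 21. Of all features, 36.4% were called higher in the knockout and 35.9% in the wild type. The counts were not tested against those shares. *ERG3*, with 2 cores, and *ERG2* passed in neither strain, while *ERG9*, *ERG26* and *HMG2*, with none in the window, rose in both.

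Loss of *RRD1* left the sterol genes without a called difference. With rapamycin, 0 of 29 were called between the knockout and the wild type in the limma fit, where 14.1% of all features were, and 6 of the 29 had an unadjusted *p*-value under 0.05, against 2413 of the 6497 features. Without rapamycin, 0 of 29 were called, against 0.585% of features, with 3 of 29 and 1303 of 6497 at an unadjusted *p*-value under 0.05. With rapamycin the knockout and wild-type libraries did not overlap for 8 of the 29 genes, where this was so for 41% of features.

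The widest differences with rapamycin were those of *NCP1*, *ERG3* and *HMG2*. *NCP1* had 182, 211 and 230 FPKM in the treated knockout against 126, 145 and 155 FPKM in the treated wild type, which was 0.54 higher (SE 0.15, 95% interval 0.20 to 0.88, limma adjusted *p* = 0.025). *ERG3* had 661, 661 and 650 FPKM in the treated knockout against 467, 497 and 471 FPKM in the treated wild type, which was 0.46 higher (SE 0.13, interval 0.17 to 0.75, adjusted *p* = 0.025). *HMG2* was lower in the knockout by the libraries given above, at −0.39 (SE 0.10, interval −0.61 to −0.17, adjusted *p* = 0.014). All 3 would pass at an adjusted *p*-value under 0.05, and *ERG3* alone was called at 0.01 in the fit without untreated wild-type library 1, with an unchanged difference of 0.46.

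In untreated cells the lowest adjusted *p*-value was that of *ERG28*, with 126, 113 and 110 FPKM in the knockout against 182, 162 and 161 FPKM in the wild type. Its difference was −0.53 (SE 0.13, 95% interval −0.82 to −0.24, limma adjusted *p* = 0.054), lower than that of all but 6.68% of features. *HMG2* was at −0.34 (SE 0.10, adjusted *p* = 0.089) and *ERG26* at −0.32 (SE 0.12, adjusted *p* = 0.17), and for these 3 of the 29 genes the untreated knockout and wild-type libraries did not overlap, as for 25.4% of features. With rapamycin *ERG28* differed from the wild type by −0.09 (interval −0.38 to 0.19) and *ERG26* by −0.11 (interval −0.37 to 0.15). None of these differences passed the test.

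**Figure D5:**
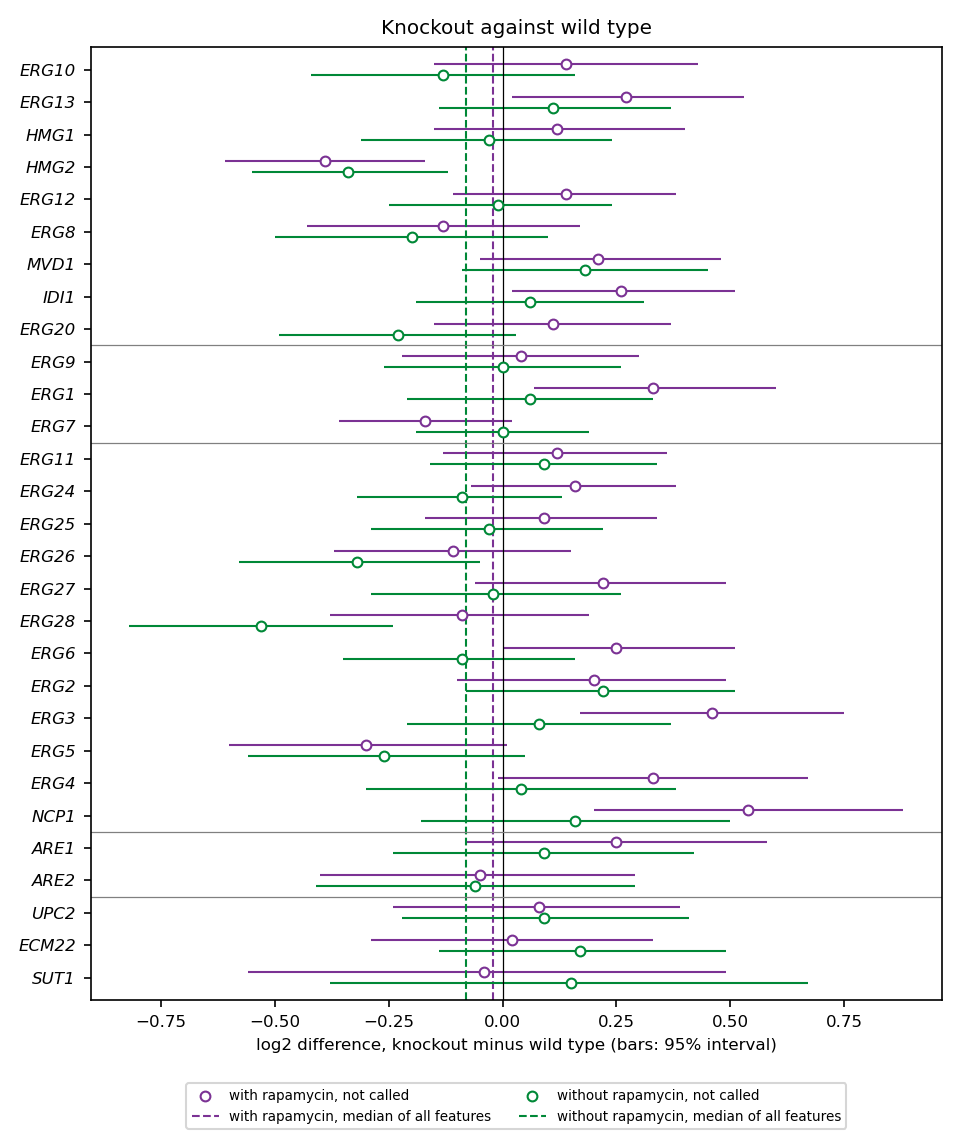
Log2 difference of the knockout minus the wild type with its 95% interval for each gene, with rapamycin in purple above without rapamycin in green. All points are open because no gene was called, and *NCP1* (0.54) and *ERG28* (−0.53) lie farthest from 0.

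The response to rapamycin was compared between the strains with an interaction term, and 0 of the 29 genes were called in the limma fit, against 0.262% of features. At an unadjusted *p*-value under 0.05 there was 1 gene, *ERG28* (0.44, SE 0.19, adjusted *p* = 0.26), against 1092 of the 6497 features. The median interaction was 0.16 for the mevalonate genes and 0.24 for the late genes, beside 0.09 for all features. Of the genes called in the knockout alone, *ERG20* had 0.34 (SE 0.17, adjusted *p* = 0.34), *ERG4* 0.28, *ERG10* 0.27, *HMG1* 0.16 and *ECM22* −0.16.

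Some rapamycin calls depended on a single library. In the knockout, 11 of the 16 calls were kept whichever of the 12 libraries was left out. *ERG10* lost its call without treated knockout library 4 or 6 or untreated library 3 or 5 (0.51 to 0.56), *ERG4* without treated knockout library 4 or 6 or untreated library 1 or 5 (0.58 to 0.64), and *ECM22* without treated knockout library 2 or 6 or untreated library 5 (−0.60 to −0.56). *HMG1* lost it without any of 9 libraries (0.37 to 0.49) and *ERG5* without any of 8 (0.39 to 0.50), wild-type libraries included, which enter through the shared variance alone. Without treated knockout library 2, whose *MFA1* level stood apart, 15 genes were called in the knockout. *HMG1*, *ERG5* and *ECM22* lost their call there, so this count includes genes not called in the main fit. Without untreated knockout library 1 there were also 15, and *ERG4* lost its call.
In the wild type, 7 of the 11 calls were kept throughout. *ERG1* lost its call without treated library 4 (0.46) or untreated library 1 (0.44), *ERG25* without treated library 4 (0.47), *SUT1* without treated library 6 (−0.98) or untreated library 3 (−0.92), and *ERG5* without treated library 4 (0.45) or 6 (0.57) or untreated library 1 (0.45) or 3 (0.59). *ECM22* gained a call in the wild type without untreated library 1 (−0.62). Calls kept under all 21 alternatives were those of *ERG9*, *ERG26* and *ERG28* in both strains, *ERG1* and *SUT1* in the knockout, and *HMG2* and *ERG7* in the wild type.

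The other genes around the pathway were listed under 74 names. Some genes have several of these names, so the names stand for 71 genes, and all 71 were tested. In the knockout 31 (43.7%) were called higher with rapamycin and 5 (7.04%) lower, against 36.4% and 10.3% of all features. In the wild type 23 (32.4%) were called higher and 9 (12.7%) lower, against 35.9% and 16.3%. After median-ratio scaling 12 (16.9%) were higher and 13 (18.3%) lower in the knockout, against 19.8% and 20.3%. In the wild type 17 (23.9%) were then higher and 15 (21.1%) lower, against 24.1% and 25%. These shares lay near those of all features, so the counts are no result about the genes as a group. The genes named in the next sentences passed the test but were chosen after their values were seen. Among helpers of sterol enzymes, *DAP1*, which binds heme and supports Erg11, rose to 274, 455 and 360 FPKM in the treated knockout, against 139, 96.7 and 94.4 FPKM untreated, and to 381, 347 and 333 FPKM in the treated wild type, against 121, 127 and 155 FPKM untreated. Its log2 difference was 1.70 (SE 0.20, limma adjusted *p* = 2.4e-05) in the knockout and 1.40 (SE 0.20, adjusted *p* = 8e-05) in the wild type. The homologs of the mammalian Insig proteins, which bind HMG-CoA reductase, went opposite ways, with *NSG2* at 1.27 in the knockout and 1.30 in the wild type and *NSG1* at −0.34 and −0.50, all 4 called.
Of 7 genes that degrade Hmg2, 3 rose in the knockout (*USA1*, *UBC7*, *HRD1*) and 2 in the wild type (*USA1*, *HRD1*), and none fell. Of 10 sterol uptake and low-oxygen wall genes, the transporters *AUS1* (0.50 in the knockout and 0.98 in the wild type) and *PDR11* (0.79 and 0.98) rose in both strains together with *PAU23*, and *TIR4* fell in the knockout. *ATF2*, which acetylates sterols, fell by 1.33 in the knockout and by 1.63 in the wild type on the log2 scale, while *SAY1*, the deacetylase that works against it, rose by 0.64 and 0.73. After scaling *USA1* and *AUS1* were called higher in the wild type alone, *UBC7*, *HRD1* and *SAY1* in neither strain, and the other calls named here for *DAP1*, *NSG1*, *NSG2*, *PDR11*, *PAU23* and *ATF2* held in both. On that scale *SPF1*, of the Hmg2 degradation genes, and *TIR4* were called lower in both strains, and the wall gene *PAU24* lower in the knockout alone.

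For the knockout against the wild type, 2 of the 71 genes (2.82%) were called with rapamycin, against 14.1% of all features, and 1 (1.41%) without it, against 0.585%, all lower in the knockout. *OSH6*, of the oxysterol-binding protein family, had 97.3, 97.2 and 95.7 FPKM in the treated knockout against 137, 129 and 115 FPKM in the treated wild type (−0.39, SE 0.09, limma adjusted *p* = 0.009608). Untreated it had 44.9, 45.2 and 44 FPKM in the knockout against 75.1, 65.1 and 73.3 FPKM in the wild type (−0.66, SE 0.09, adjusted *p* = 0.0053). *RAM1*, a subunit of the farnesyltransferase that uses farnesyl diphosphate to modify a-factor and Ras, had 41.5, 40.2 and 45.6 FPKM in the treated knockout against 57.3, 60.1 and 52.9 FPKM in the treated wild type (−0.41, SE 0.09, adjusted *p* = 0.0055). After median-ratio scaling *RAM1* was still called (adjusted *p* = 0.0079), and *OSH6* was not (0.019 with rapamycin and 0.016 without it). The libraries of the 2 strains did not overlap in any of these comparisons, and no gene of these lists was called in the interaction.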

How the data were processed

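The authors aligned single 100 nt reads of TruSeq libraries with TopHat and quantified genes with Cufflinks, and deposited 1 column of FPKM per library. Versions, build and annotation are not given in the sources used here. That kit does not mark strand, so reads of overlapping genes on opposite strands cannot be told apart. Groups and library numbers were taken from the sample labels. The authors' CuffDiff test needs aligned reads and was not run.

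The 29 genes, the gene lists and the tests were chosen with earlier results of these data known. Lists were matched by the names in the file or by R64 names, with 6048 loci matched to R64, and R64 coordinates may differ from the authors' annotation. Every gene of the fixed list is named, and values per library are given for genes called in at least 1 of the 5 contrasts, for the 3 regulators and for both HMG-CoA reductases.

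Log2(FPKM + 1) of features with a mean of 1 or more was fitted with limma 3.58.1 in R 4.3.3, with 4 group means, 8 residual degrees of freedom and trended empirical Bayes moderation. Adjusted *p*-values are Benjamini-Hochberg values of that fit over all features. With 3 libraries a group, an exact permutation test of 1 value cannot go below 0.1 and was not used. Intervals are 95% intervals from the moderated standard errors. The fit was tested on simulated data with known changes. Tables and figures were made in Python 3.11.15 with matplotlib 3.10.9.

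Depth was not given. Steps in low FPKM values implied 8440000 to 11660000 mapped reads per library, within a searched range of 7000000 to 14000000, with 41.2% to 54.3% of low values within 0.05 of a whole read, so whole reads were not recovered and no count test was run.

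Alternatives were pseudocounts of 0.1 and 5, no filter or a mean FPKM of at least 5, median-ratio scaling, quantile normalization, no variance trend, only the libraries of a contrast, a threshold of 0.05, each library left out, and the library number as a block.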

Additional observations from a re-analysis of the deposited data

How the results depend on the processing

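Of 567 recomputed values of the 27 called gene responses, 496 kept their direction and stayed past the threshold, 71 lost the call and 0 turned direction. Some of these values could not fail. The threshold of 0.05 cannot drop a call made at 0.01, and leaving out a library of the other strain leaves the log2 difference unchanged. Under every alternative 5 of 16 calls were kept in the knockout and 5 of 11 in the wild type. With median-ratio scaling 8 genes were called in the rapamycin response of the knockout and with quantile normalization 9, against 16 on the values as deposited and 22 at an adjusted *p*-value under 0.05. In the wild-type response median-ratio scaling gave 9 genes, against 11 on the values as deposited and 15 at 0.05. Under median-ratio scaling the medians for the mevalonate and late arms were 0.11 and 0.10 in the rapamycin response of the knockout, 0.00 and 0.04 in that of the wild type, 0.18 for the mevalonate arm in knockout against wild type with rapamycin, 0.07 and 0.08 without rapamycin, and 0.09 and 0.18 in the interaction. The response of *HMG1* in the wild type, which was not called, turned to −0.01 there. Under quantile normalization those medians were 0.14 and 0.15 in the knockout response, 0.06 and 0.22 in the wild-type response, 0.05 for the mevalonate arm in knockout against wild type without rapamycin, and 0.07 and 0.16 in the interaction. The cause was not tested beyond the shift of all features that these scalings remove.

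With each library left out in turn, 11 to 18 genes were called in the knockout response and 9 to 12 in the wild-type response. Over all features these fits gave 2440 to 3114 calls in the knockout response and 2974 to 3404 in the wild-type response. The medians for the mevalonate arm ranged from 0.41 to 0.52 in the knockout response, 0.27 to 0.34 in the wild-type response, 0.09 to 0.23 in knockout against wild type with rapamycin, −0.13 to 0.02 without it, and 0.10 to 0.18 in the interaction, and that of the late arm from 0.27 to 0.43 in the wild-type response and 0.19 to 0.32 in the interaction. For knockout against wild type with rapamycin, 0 to 1 genes were called with a library left out (*ERG3*, without untreated wild-type library 1), and 3 at an adjusted *p*-value under 0.05 (*NCP1*, *ERG3*, *HMG2*).

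Over all features, knockout against wild type with rapamycin gave 914 calls, against 374 from the libraries of that contrast alone, 423 without treated knockout library 4, 509 without treated wild-type library 6 and 1645 at 0.05. Without rapamycin the 38 calls ranged from 1 to 46 with a library left out and from 3 to 212 otherwise, and the 17 interaction calls from 1 to 19 and from 7 to 153. Whether the library numbers pair the strains could not be settled. Same-numbered libraries deviated from their group means with correlations of −0.168 to 0.127 over features. Knockout libraries 5 and 6 correlated best with the wild-type library of their own number, and knockout libraries 1, 2, 3 and 4 did not. With 3 libraries per group, such weak correlations cannot tell whether days were shared, and pairings of numbers within a strain were not compared. A replicate block gave 0 called sterol genes in both comparisons of the strains and in the interaction, with 613, 3 and 7 calls over all features. It could not be fitted for the rapamycin responses, where numbers are not shared. The 3 libraries per group and the depth limit the precision.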

Other observations

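Of all features 36.4% were called higher and 10.3% lower with rapamycin in the knockout, and 35.9% and 16.3% in the wild type, and the counts below are descriptions beside those shares. After median-ratio scaling the shares were 19.8% and 20.3% in the knockout and 24.1% and 25% in the wild type. Of the 8 heme synthesis genes, whose product the cytochrome P450 enzymes of sterol synthesis carry, 3 (37.5%) rose and 1 (12.5%) fell in the knockout, and 2 (25%) rose and 4 (50%) fell in the wild type. After median-ratio scaling 1 was higher and 3 lower in the knockout, and 1 was higher and 4 lower in the wild type. *HEM14*, protoporphyrinogen oxidase, rose in both strains, to 56, 57.4 and 61.8 FPKM in the treated knockout, against 27.4, 30.2 and 27.3 FPKM untreated, and to 53, 52.4 and 53.8 FPKM in the treated wild type, against 30.5, 29.3 and 35.6 FPKM untreated. *HEM3*, porphobilinogen deaminase, fell in both, by 0.83 (SE 0.15, limma adjusted *p* = 0.00074) in the knockout and by 1.15 (SE 0.15, adjusted *p* = 5.4e-05) in the wild type on the log2 scale. *HEM13*, the oxygen-dependent coproporphyrinogen oxidase, had 119, 106 and 132 FPKM in the treated knockout, 81.3, 74.3 and 91.5 FPKM in the treated wild type, 132, 93.5 and 118 FPKM in the untreated knockout, and 120, 118 and 134 FPKM in the untreated wild type. It fell in the wild type (−0.59, SE 0.14, adjusted *p* = 0.003) and not in the knockout (0.06, SE 0.14, adjusted *p* = 0.73). No heme gene was called in the interaction, where the lowest adjusted *p*-value of the list was 0.093, and 3 of the 8 had an unadjusted *p*-value under 0.05. These genes were chosen after their values were seen.

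Of 14 other genes that use farnesyl diphosphate or its products, 8 (57.1%) rose and 1 fell in the knockout, and 5 (35.7%) rose and 1 fell in the wild type. After scaling 2 were higher and 2 lower in the knockout, and 4 were higher and 3 lower in the wild type. The gene that fell in both strains was *RER2*, of dolichol synthesis, by 0.58 (SE 0.11, limma adjusted *p* = 0.00071) in the knockout and by 0.76 (SE 0.11, adjusted *p* = 7.7e-05) in the wild type. Of 7 oxygen and heme regulators, the *HAP1* transcript rose in both strains, by 0.53 in the knockout and 0.51 in the wild type, while *TUP1* and *MOT3* fell in the wild type. Hap1 is known as a heme-responsive activator of several *ERG* genes, and its activity in these strains was not measured. After scaling *HAP1* was called in neither strain, and *TUP1* and *MOT3* were called lower in both. Of 16 tested genes of intracellular sterol transport and the oxysterol-binding protein family, not all of which need carry sterols, 9 (56.2%) rose in the knockout and 7 (43.8%) in the wild type. None fell. After scaling 5 were higher in the knockout (31.2%), and 6 were higher (37.5%) and *KES1* lower in the wild type.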
